A study of Danio rerio with 228 samples.

Results

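Reference RNA 1 and reference RNA 2 were sequencing controls of a zebrafish TempO-Seq experiment, and each was run 4 times, so that 8 of the 228 libraries of the series were compared here. They were chosen by their titles alone, 4 libraries named for reference RNA 1 against 4 named for reference RNA 2, and every probe of the panel was used. TempO-Seq anneals and ligates pairs of detector oligonucleotides on each target RNA and counts the ligated pairs by sequencing, and its S1500+ zebrafish panel holds 3183 probes. The rest of the series consists of embryo pools exposed to perfluorinated chemicals or to solvent, and of 4 libraries made from water.

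The genotype label of each reference RNA holds only its name, and no exposure chemical is named for it. The treatment protocol, exposure in 0.1% dimethyl sulfoxide with chemical from 4 to 120 hours after fertilization, stands on the reference RNAs as on every sample, water included. Both carry Ottawa fish, processing batch A and RNA extraction batch 10. Reference RNA 1 has a yield of 186 ng/µl and an RNA integrity number of 8.7, and reference RNA 2 has 119 ng/µl and 8.3. Replicates 1 and 2 of each RNA ran on plate 1 and replicates 3 and 4 on plate 2. Because all 4 libraries of an RNA share 1 yield, integrity number and extraction batch, they are technical repeats, and every p-value below speaks of these 2 RNAs and not of a condition, an age or a tissue. The tissue label of both RNAs reads as 10 pooled whole embryos at 120 hours after fertilization, and the same label stands on the water libraries. The 6 solvent pools of the same fish origin and processing batch (control_ottawa, 10 embryos each, 0.1% dimethyl sulfoxide from 4 to 120 hours after fertilization) are set beside the reference RNAs, and the 4 water libraries give the background.

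The data went against the tissue label. Markers that were abundant in the embryo pools, such as the fast-muscle troponin tnnt3b and the red cone opsin opn1lw1, stood at the level of water in both reference RNAs, as given near the end. Reference RNA 1 held genes of the liver list and reference RNA 2 genes of the brain neuron and myelin lists, at counts far above those of the embryo pools. No tissue name was given to either RNA, and both are called by their labels.

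Total counts were 2976899 to 4129093 in reference RNA 1, 2520942 to 3514686 in reference RNA 2, 2981853 to 3679118 in the 6 embryo pools and 165618 to 202586 in water. A few probes took much of reference RNA 1: the 10 most abundant held 48.8 to 52.1% of its counts, against 23.1 to 23.9% in reference RNA 2. The probe of fabp10a, the liver fatty acid binding protein, alone held 19.4 to 24% of the counts of reference RNA 1, and that of mbpa, myelin basic protein, 9.12 to 10.5% of reference RNA 2. Totals therefore cannot be compared directly, and CPM, the counts relative to library size, were scaled by TMM, which sets the bulk of probes equal. With total-count scaling the median log2 difference over all tested probes moved by -2.17 towards reference RNA 2, so that differences smaller than this shift depend on the scaling. Water counts were spread over the same abundant genes, with 2.95 to 3.07% on fabp10a and 1.28 to 1.58% on mbpa. A probe whose mean count in an RNA was no more than 2 times its mean count in water is called at water level.

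As background, the liver of fish, like that of mammals, makes most of the proteins of blood plasma, among them fibrinogen, complement and apolipoproteins, and it handles amino acids, bile and foreign compounds. Neurons carry neurofilaments in their axons, release transmitter through a vesicle fusion machinery of SNARE proteins, and answer it through receptor channels. Myelin is laid down around axons by glia, and its bulk proteins, such as myelin basic protein, are made by those glia alone.

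Of 2504 probes that passed the low-count filter, 1955 differed between the RNAs at an adjusted p under 0.05 (78.1% of those tested), by edgeR's quasi-likelihood test with plate as a term and Benjamini-Hochberg adjustment. Of these, 927 were higher in reference RNA 1 (37% of those tested) and 1028 higher in reference RNA 2 (41.1%). A difference of 2-fold or more was called for 1430 probes (57.1%), 705 higher in reference RNA 1 and 725 in reference RNA 2. The 4 and 4 libraries did not overlap for 1800 probes (71.9%). The split depended on the scaling: reference RNA 1 was the higher one for 47.4% of calls with TMM, 48.9% with DESeq2's size factors and 13.3% with total counts. Under all 3 scalings, 308 probes were called higher in reference RNA 1 and 1000 higher in reference RNA 2, and these are called scaling-independent below, where counts for lists and families also leave out probes whose higher RNA is at water level. The criterion is one-sided, since total counts move all differences towards reference RNA 2. It was met by 1000 of the 1028 calls towards reference RNA 2 and by 308 of the 927 towards reference RNA 1. For 428 probes the call turned round with total counts.

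Background also reached the calls. For 130 called probes the RNA that TMM puts higher was itself at water level, and 117 of these were called higher in reference RNA 1. The other RNA could still lie over water in deposited counts. Both RNAs were at water level for 116 of the 2504 tested probes, called or not. For another 391 called probes only the lower RNA was at water level, 33 of them higher in reference RNA 1 and 358 higher in reference RNA 2. The remaining 1434 called probes lay over 2 times water in both RNAs. A fold change against an RNA at water level is set by the background count and not by the RNA, so its size is a description of these libraries. Subtracting the mean water count of the same plate, an alternative chosen after seeing the data, left 1760 calls and moved the log2 difference of fabp10a from 8.02 to 9.04 and that of mbpa from -4.82 to -8.66.

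**Figure D1:**
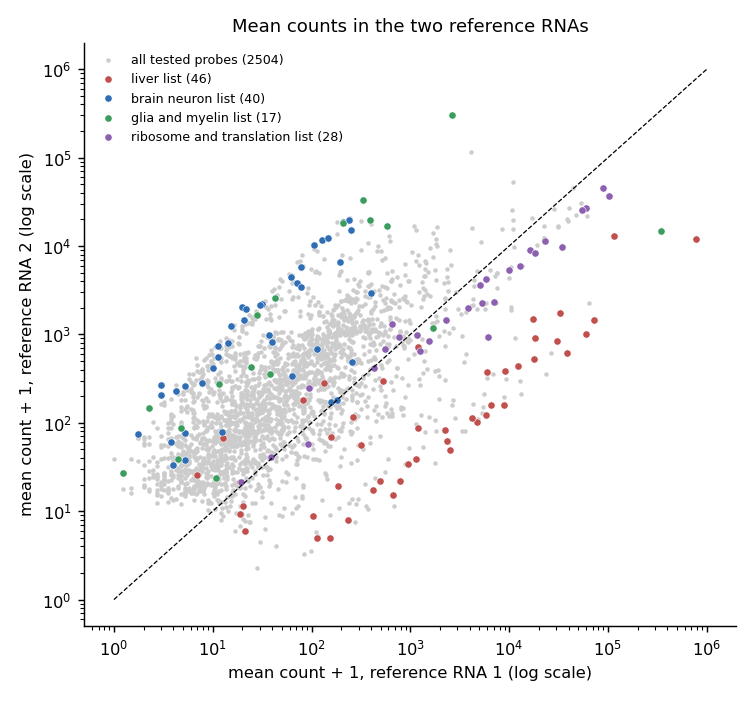
Mean count plus 1 of every tested probe in reference RNA 1 (x axis) and reference RNA 2 (y axis), both on log scales, over 4 libraries each, with members of 4 gene lists coloured and the line of equal counts dashed. Liver-list genes lie in a band along the lower right and brain neuron and myelin genes along the upper left, while ribosome-list genes lie near the diagonal.

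Genes of the liver list were higher in reference RNA 1 almost without exception. Of 46 liver-list genes tested, 44 were called higher in reference RNA 1, 0 were called higher in reference RNA 2 and 2 did not pass (cyp2aa8 and sult2st1). Over all probes tested, 37% were called higher in reference RNA 1 and 41.1% higher in reference RNA 2. The median log2 difference of the list was 6.61, against -0.11 over all genes tested. Of the 44, 42 lay over water level in reference RNA 1 and 40 were scaling-independent. With total counts the median was 4.43, against -2.28 over all probes tested. The summed counts of the list were 1013983 to 1563614 in reference RNA 1, 32913 to 41800 in reference RNA 2, 60721 to 82830 in the embryo pools and 9860 to 11855 in water. With TMM over the RNAs and pools together, reference RNA 1 lay above all 6 pools for 36 of the 46 genes, against 29.4% of all probes, and reference RNA 2 lay below them for 39, against 32.9%. With total counts these numbers were 32, against 9.82%, and 27, against 20.3%.

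The liver fatty acid binding protein fabp10a, a defining marker of the liver list, had 732796, 992141, 576354 and 797229 counts in the 4 libraries of reference RNA 1. It had 12699, 13084, 10810 and 11159 in reference RNA 2, 4881 to 6222 in water and 9269 to 15720 in the pools. Reference RNA 1 stood apart from every other library, and reference RNA 2 lay within the range of the pools. Scaled levels were 482615 ± 59229 CPM and 1864 ± 147 CPM (SD, n = 4 technical repeats), a log2 difference of 8.02 ± 0.07 (SE; adjusted p = 3.22e-43).

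Proteins of blood plasma come first. The fibrinogen gamma chain fgg, a subunit of the clot, had 52541, 72530, 54103 and 61731 counts in reference RNA 1 and 1072, 1162, 901 and 901 in reference RNA 2, against 1026 to 2171 in the pools and 369 to 435 in water. Its log2 difference was 7.91 ± 0.06 (adjusted p = 1.29e-45). The fibrinogen beta chain fgb differed by 7.56 and prothrombin, f2, by 7.43, whereas the thrombin receptor f2r (log2 difference 0.29, not called) and tissue factor f3a (-1.82, called higher in reference RNA 2), which sit on cells and not in plasma, did not follow.

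Complement divided in the same way between secreted components and receptors. Of 10 complement and factor H genes tested, taken from the panel by their symbols, 8 were called higher in reference RNA 1 and 1 higher in reference RNA 2. Over all probes tested these shares were 37% and 41.1%. The component c5 had 7969, 10615, 8375 and 8214 counts in reference RNA 1 and 208, 143, 140 and 141 in reference RNA 2, with 66 to 79 in water. The factor H-like genes cfhl4 (log2 difference 8.06 ± 0.08) and cfhl5 (8.01 ± 0.13), relatives of a complement inhibitor, were the 2 genes with fitted differences of 8 or more besides fabp10a. The protease c1r differed by 7.38, masp2, a protease of the lectin route, by 7.54 and c3a.6 by 7.5. The receptor c3ar1 was called higher in reference RNA 2 (-0.92), and c5ar1 did not pass (0.00). The chains c1qa and c1qb, which macrophages make, had mean counts of 18 in reference RNA 1 and 18 and 17 in reference RNA 2, and their calls towards reference RNA 1 (2.03 and 2.06) were lost with total counts.

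All 4 apolipoproteins tested were called higher in reference RNA 1, beside 37% of all probes tested, and all 4 were scaling-independent. The lipoprotein component apoc1 had 332010, 413052, 300711 and 323536 counts in reference RNA 1 and 16929, 17171, 12587 and 12390 in reference RNA 2. The pools had 17093 to 23554, so that reference RNA 1 lay far above them and 3 of the 4 libraries of reference RNA 2 lay below. Its log2 difference was 6.56 ± 0.04 (adjusted p = 8.80e-48), and those of apoa2 and apoa1a were 7.65 and 7.10. apoea stood at 140 to 188 counts in reference RNA 1, 54 to 86 in reference RNA 2 and 57 to 92 in water, far under the 1997 to 3512 of the pools. The copper carrier ceruloplasmin, cp, reached 104003 to 138002 counts in reference RNA 1 against 345 to 1270 in the pools. Reference RNA 2, with 10475 to 14848, lay above the pools as well. The haemoglobin carrier hp had 984 to 1456 counts in reference RNA 1 and 0 to 7 in the pools. tfa, transferrin and a defining marker of the list, failed the low-count filter. It had 0 to 3 counts in the 8 reference libraries and 0 to 1 in the pools, while 1 water library held 223. Whether its probe works was not tested.

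Enzymes of amino acid, sugar and foreign-compound metabolism followed. tdo2a, which opens the tryptophan ring, had 35047, 48479, 33926 and 37051 counts in reference RNA 1 and 647, 673, 577 and 568 in reference RNA 2, against 3332 to 4996 in the pools. Its log2 difference was 7.97 ± 0.07 (adjusted p = 4.98e-44), and its relative tdo2b differed by 7.60. The alcohol dehydrogenase adh8a had 11119 to 15912 counts in reference RNA 1 and 174 to 239 in reference RNA 2, but 6 to 45 in the pools, below its 78 to 90 counts in water. A cytochrome of the same pattern, cyp2k31, had 1564 to 2141, 24 to 41 and 0 to 13 counts. Methyl-group enzymes were among the larger differences, with ahcy at 6.85 and gnmt at 6.55.

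Of 9 genes of cytochrome P450 family 2 tested, 7 were called higher in reference RNA 1 and 0 higher in reference RNA 2. These shares were 37% and 41.1% over all probes tested. Of the 7, 6 were scaling-independent. Of 6 genes of families 1 and 3, 4 were higher in reference RNA 1, and cyp1b1 (-1.53) was higher in reference RNA 2. Of the 4, 3 were scaling-independent. In each of these 2 groups, 1 gene was at water level in the RNA that the fit puts higher. cyp1a, the classic target of the aryl hydrocarbon receptor, had 784 to 1088 counts in reference RNA 1, 29 to 39 in reference RNA 2 and 85 to 123 in the pools. Over the whole list of xenobiotic and glutathione enzymes, 24 of 38 were called higher in reference RNA 1 and 8 higher in reference RNA 2. Of all probes tested, 37% and 41.1% were. Of the 24, 15 were scaling-independent, and all 8 were, as nearly all calls in that direction were. The list median was 1.28 with TMM and -0.90 with total counts, so its direction depends on the scaling. The heme-degrading hmox1a (7.46), the folate enzyme aldh1l1 (6.71) and catalase, cat (5.43), were higher in reference RNA 1. The carbonyl reductase cbr1 (-1.50), the receptor ahr1b (-1.42) and the transporter abcc1 (-1.502) were higher in reference RNA 2.

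A bile transporter and a hepatocyte transcription factor are given next. The bile salt export pump abcb11b had 699, 948, 692 and 810 counts in reference RNA 1, 25, 27, 21 and 11 in reference RNA 2, 13 to 38 in the pools and 1 to 7 in water. The nuclear receptor hnf4a had 2158, 2681, 2269 and 2217 counts in reference RNA 1 and 71, 65, 42 and 64 in reference RNA 2, with 293 to 475 in the pools and 26 to 33 in water. For both genes the groups did not overlap, with log2 differences of 7.24 ± 0.11 and 7.28 ± 0.09 (adjusted p = 1.17e-35 and 7.78e-39). The endoderm factor gata6 differed by 6.65, whereas cebpa, a factor of liver and myeloid cells, was called higher in reference RNA 2 (-0.51). cyp7a1, the first enzyme of bile acid synthesis, was an exception within the list: its mean counts of 18 in reference RNA 1, 20 in reference RNA 2 and 15 in water left it at water level in both.

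The vitellogenins, egg yolk proteins that the liver makes under estrogen, were tested through vtg5 and vtg6. These were the 2 of 7 vitellogenin genes on the panel that passed the low-count filter. vtg6 had 219, 342, 193 and 260 counts in reference RNA 1, 12, 10, 15 and 14 in reference RNA 2 and 1 to 7 in the pools, and its log2 difference was 6.30 ± 0.19 (adjusted p = 5.92e-27). vtg5 differed by 6.25 at 19 to 35 against 1 to 2 counts. Among those that failed it were vtg1 and vtg2, at 0 to 5 and 0 to 8 counts in the 8 reference libraries. The estrogen receptor esr1 had 21 to 50 counts in reference RNA 1 and 81 or more in reference RNA 2, against 0 to 6 in the pools, and did not pass the test between the RNAs (log2 difference 0.44, adjusted p = 0.0718).

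**Figure D2:**
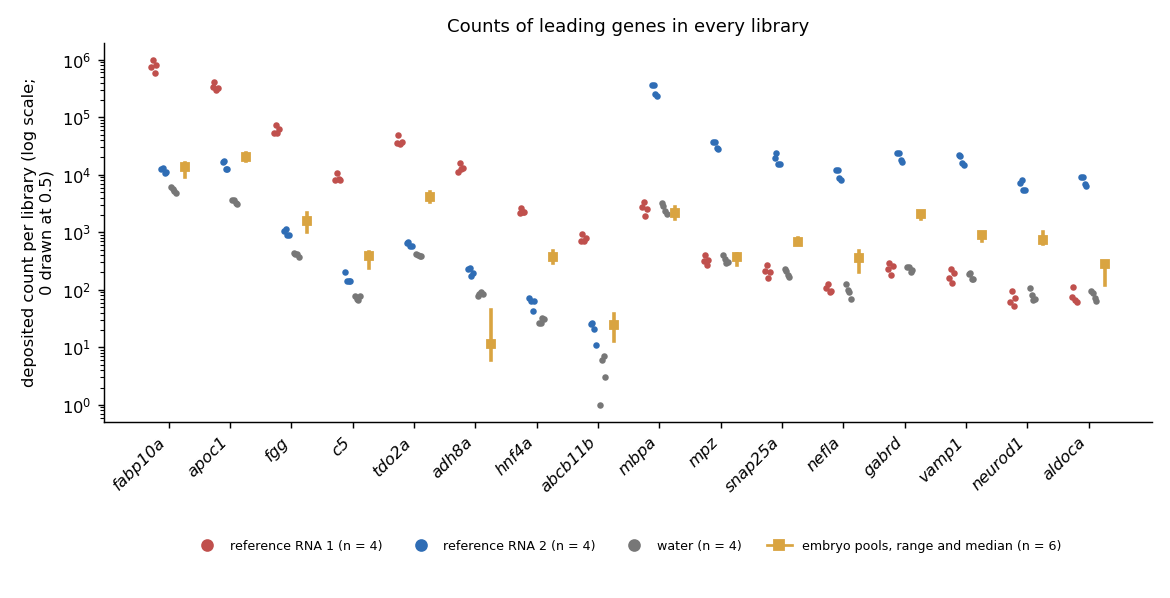
Deposited counts (log y axis, 0 drawn at 0.5) of 8 genes higher in reference RNA 1 and 8 higher in reference RNA 2, with 1 point per library for the 2 RNAs and water and the range and median of the 6 embryo pools. The lower RNA lies beside the water points for every gene of the right-hand block, and somewhat above them for those on the left.

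The lower RNA behaved differently in the 2 directions. Among the 15 genes with the largest differences towards reference RNA 1, the mean count in reference RNA 2 was 1.50 to 2.23% of that in reference RNA 1 and 1.55 to 3.36 times that in water. Among the 15 largest towards reference RNA 2, the mean count in reference RNA 1 was 0.757 to 1.12% of that in reference RNA 2 and 0.383 to 1.33 times that in water. These are deposited counts, and the TMM factors were 0.449 to 0.487 in reference RNA 1 and 2.1 to 2.16 in reference RNA 2. One scaled level therefore gives fewer counts in reference RNA 1 than in reference RNA 2. The part of this in the contrast, and where the residual counts came from, was not tested.

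Transcripts of the protein synthesis machinery were also higher in reference RNA 1 relative to TMM. All 28 tested genes of the ribosome and translation list were called higher there, beside 37% of all probes tested. Their median log2 difference was 2.90, and 20 of them were scaling-independent. With total counts the median was 0.72. Of 39 cytosolic ribosomal proteins found on the panel by symbol, 39 were called higher in reference RNA 1, 36 scaling-independent, and their differences ran from 1.98 for rps27.2 to 4.74 for rps3. rps20 of the small subunit had 95551, 122721, 92700 and 100106 counts in reference RNA 1 and 42242, 41921, 31727 and 31040 in reference RNA 2, both under the 198336 or more of the pools in deposited counts. Position against the pools depended on the scaling: reference RNA 1 lay above all 6 pools for 23 of the 28 list genes and below for 1 with TMM, and above for 3 and below for 16 with total counts. In raw counts rps27.2 overlapped between the RNAs (39383 to 55326 and 40202 to 51265), so that its call rests on the scaling.

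Digestive enzymes gave an intermediate case. All 4 tested genes of the exocrine pancreas list were called higher in reference RNA 1, beside 37% of all probes tested, with a median of 4.31. Trypsin, prss1, had 7256, 9215, 6133 and 6923 counts in reference RNA 1, 2485, 2711, 1997 and 1970 in reference RNA 2 and 1270 to 1670 in water, all below the 19304 to 68569 of the pools. Reference RNA 2 was thus at water level and reference RNA 1 a few times above it. In the intestine list 13 of 15 genes were called higher in reference RNA 1, beside 37% of all probes tested. Only 6 of the 13 lay over water level in reference RNA 1, and 5 were scaling-independent. The list median was 2.09 with TMM and -0.09 with total counts. Reference RNA 1 was at water level for 9 of the 15 and reference RNA 2 for 10, and the gut regulator cdx1b was in both. apoa1a and cyp3a65, among the 5 with the largest differences, are also on the liver list.

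Reference RNA 2 held the genes of neurons. Of 40 tested genes of the brain neuron and synapse list, 37 were called higher in reference RNA 2 and 3 higher in reference RNA 1. Over all probes tested these shares were 41.1% and 37%. The median log2 difference of the list was -3.88. With total counts the median was -6.05. All 37 were scaling-independent, as nearly all calls towards reference RNA 2 were, and for 29 of the 40 genes reference RNA 1 was at water level. The summed counts of the list were 108005 to 159156 in reference RNA 2, 2408 to 3833 in reference RNA 1, 14582 to 20409 in the pools and 1551 to 2361 in water. Reference RNA 2 exceeded all 6 pools for 32 of the 40 genes with TMM, against 34.1% of all probes, and for 34 with total counts, against 54.8%.

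Structural genes of axon and dendrite led. The light neurofilament chain nefla had 11961, 12058, 8661 and 8073 counts in reference RNA 2 and 108, 127, 93 and 95 in reference RNA 1, which lay among the water counts of 69 to 125, while the pools had 207 to 470. The scaled levels were 1567 ± 71.8 and 66.4 ± 5.24 CPM (SD, n = 4), and the log2 difference was -4.56 ± 0.07 (adjusted p = 2.16e-35). All 4 neurofilament genes tested were called higher in reference RNA 2, from -3.45 for nefmb to -4.64 for neflb. The dendritic microtubule protein map2 had the largest difference towards reference RNA 2 by the naming rule, -4.99 ± 0.33, at 311, 325, 204 and 217 counts against 0, 5, 2 and 1. A few counts set this size, which was -4.58 without replicate 1 of reference RNA 1 and -5.84 without its replicate 2. The growth cone protein gap43 differed by -3.74 and a tubulin, tubb2, by -4.43.

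The vesicle fusion machinery came next. snap25a, a SNARE of the plasma membrane, had 19749, 24121, 15461 and 15631 counts in reference RNA 2, 211, 266, 159 and 200 in reference RNA 1, 165 to 229 in water and 644 to 798 in the pools. Its log2 difference was -4.47 ± 0.07 (adjusted p = 5.01e-35). The vesicle SNARE vamp1 had 14923 to 21955 counts against 130 to 230 (-4.68 ± 0.08), and stxbp1a, which assembles the complex, differed by -4.38. For all 3, reference RNA 1 was at water level and every library of reference RNA 2 lay above the highest pool.

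Receptors and channels were taken from the panel by symbol. All 15 ionotropic glutamate receptor subunits were called higher in reference RNA 2, beside 41.1% of all probes tested. Their median was -3.95, and reference RNA 1 was at water level for 13 of them. The obligatory NMDA receptor subunit grin1a had 5126, 4846, 3971 and 4057 counts in reference RNA 2, 68, 73, 42 and 63 in reference RNA 1 and 48 to 90 in water. grin3ba had 0 counts in all 4 libraries of reference RNA 1 and 24 to 55 in reference RNA 2, so that its fitted size is no bound. Of 8 voltage-gated sodium channel subunits tested, out of 10 on the panel, 7 were called higher in reference RNA 2. Reference RNA 1 was at water level for 5 of the 8. The exception was the muscle channel scn4ab (adjusted p = 0.05), at 6 to 11 and 11 to 32 counts against a median of 158 in the pools. Of 9 potassium channel genes on the panel, 5 passed the low-count filter, and all 5 were called higher in reference RNA 2 (median -3.61). Reference RNA 1 was at water level for all 5. A gene that passes the filter through 1 RNA alone can be called in only 1 direction, so this count is a description. All 5 nicotinic acetylcholine receptor genes on the panel were tested and called higher in reference RNA 2 (median -2.73), with reference RNA 1 at water level for 3.

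Of 3 GABA-A receptor subunits, 2 were called higher in reference RNA 2 and 1 higher in reference RNA 1 (1.48). The delta subunit gabrd, part of receptors outside the synapse, had 24248, 23876, 18167 and 16440 counts in reference RNA 2 and 227, 297, 183 and 262 in reference RNA 1, overlapping the water range of 204 to 253. The pools lay between, at 1732 to 2198. The dopamine receptor drd2a, with 374 to 678 counts against 6 to 10, differed by -4.11.

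Transmitter enzymes and peptides split. Choline acetyltransferase, chata (-4.09), and tyrosine hydroxylase, th (-4.52), the first enzyme of dopamine synthesis, were called higher in reference RNA 2, as were the peptides crhb (-3.86) and avp (-3.89). The GABA-making gad1a was higher in reference RNA 2 by -0.84 ± 0.07, with 344 to 521 counts in reference RNA 1, over its 23 to 41 in water. ddc (1.86), which makes dopamine and serotonin, and the serotonin transporter slc6a4a (2.01) were 2 of the 3 neuron-list genes called higher in reference RNA 1. Their raw counts overlapped between the RNAs (133 to 196 and 139 to 193 for ddc), and with total counts their differences were -0.33 and -0.17. The third, the immediate early gene fosab, likewise turned, from 1.08 to -1.11.

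Neuronal transcription factors showed large differences at modest counts. neurod1 had 7281, 8225, 5435 and 5347 counts in reference RNA 2 and 61, 97, 52 and 73 in reference RNA 1, with 67 to 107 in water (-4.51 ± 0.09, adjusted p = 4.97e-33). npas4a, which neuronal activity switches on, had 1482 to 2547 against 11 to 23 counts and 12 to 97 in the pools. The factors eomesa, with 353 to 468 against 5 to 9 counts, and gata3, which lymphocytes express as well as neurons and which were on the leukocyte list, differed by -3.89 and -3.62.

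Myelin and glial genes were abundant in reference RNA 2. Of 17 tested genes of the glia and myelin list, 14 were called higher in reference RNA 2, 2 higher in reference RNA 1 and aqp4 did not pass. Over all probes tested, 41.1% were called higher in reference RNA 2 and 37% higher in reference RNA 1. The list median was -2.82. Myelin basic protein, mbpa, had 362419, 369299, 252324 and 229901 counts in reference RNA 2 and 2719, 3428, 1948 and 2510 in reference RNA 1. Water had 2115 to 3201 and the embryo pools 1689 to 2782, so that neither reference RNA 1 nor the pools could be told from water with this probe. Scaled levels were 46492 ± 3663 and 1653 ± 235 CPM (SD, n = 4; log2 difference -4.82 ± 0.05, adjusted p = 9.64e-41). The other probe of mbpa agreed in direction, at -3.35 ± 0.12.

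Myelin protein zero, mpz, a component of central myelin in fish, had 37680, 37266, 29123 and 28454 counts in reference RNA 2 and 270 to 410 in reference RNA 1, where water had 292 to 397 and the pools 270 to 412. mag, which binds myelin to the axon, differed by -4.40, and sox10, a factor of the myelinating lineage, by -4.77 at 153, 205, 116 and 108 counts against 0 to 2. Among astroglial genes, the gap junction gene cx43 (-3.64), the glutamate transporter slc1a2b (-3.95), glutamine synthetase glulb (-2.82) and gfap (-2.15) were higher in reference RNA 2. The other glutamate transporter, slc1a3a, was called higher in reference RNA 1 (2.55 ± 0.06), at 1580 to 1916 against 961 to 1428 counts, and stayed so with total counts (0.36). apoc1, the other exception in the list, was described with the apolipoproteins. The brain aromatase cyp19a1b, which radial glia express in fish, had 44, 85, 67 and 65 counts in reference RNA 2 and 0 to 2 in reference RNA 1 (-3.96 ± 0.56).

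Several isozymes of sugar metabolism differed between the RNAs. Aldolase C, aldoca, the brain form, had 9208, 9111, 6890 and 6434 counts in reference RNA 2 and 62 to 113 in reference RNA 1 (-4.62 ± 0.09), against 122 to 307 in the pools. The muscle aldolase aldoaa was also higher in reference RNA 2 (-2.15). Hexokinase 1, hk1, had 648 to 1048 against 7 to 15 counts (-4.27 ± 0.17). The liver and red cell pyruvate kinase pklr had 6223, 7807, 6728 and 6423 counts in reference RNA 1 and 241 to 435 in reference RNA 2 (6.30 ± 0.08), and the liver glycogen phosphorylase pygl differed by 5.54. Of 6 glucose transporters tested, slc2a2 (5.98) and the fructose carrier slc2a5 (7.06) were higher in reference RNA 1 and slc2a1a (-3.86), slc2a1b (-1.07), slc2a3a (-3.41) and slc2a3b (-3.03) higher in reference RNA 2. The 2 water libraries of plate 1 held 180 and 182 counts of slc2a5 and those of plate 2 held 5 and 1, while reference RNA 1 had 296 to 436.

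**Figure D3:**
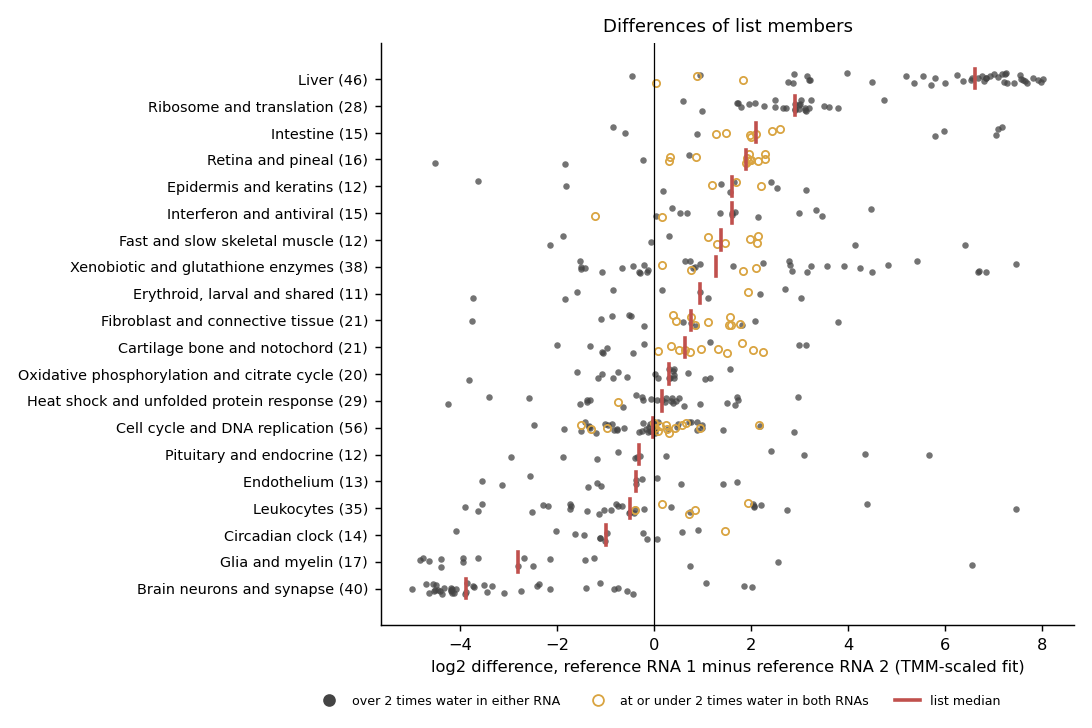
Log2 difference (x axis, reference RNA 1 minus reference RNA 2, TMM-scaled fit) of every tested member of the lists with 10 or more tested genes (number in brackets), with red bars at list medians. Open points mark genes at water level in the RNA that the fit puts higher. Despite the legend's wording, the other RNA can lie over water for these genes. The liver list has its median at 6.61, the glia and brain neuron lists at -2.82 and -3.88, and the open points of retina and muscle lie near 2.

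With TMM, immune and vessel genes were called in both directions. Of 35 leukocyte-list genes, 16 were called higher in reference RNA 2 and 10 higher in reference RNA 1, beside 41.1% and 37% of all probes tested. All 16 were scaling-independent, as nearly all calls in this direction were. Of the 10, 8 lay over water level in reference RNA 1 and 3 were scaling-independent. The antigen presentation chain cd74a had 19031, 18004, 12451 and 11830 counts in reference RNA 2, 1055, 1352, 1002 and 1109 in reference RNA 1 and 116 to 157 in water, but 23 to 55 in the pools. Both RNAs thus exceeded every pool, and they differed by -1.73 ± 0.06 (adjusted p = 1.62e-25). The macrophage genes csf1rb (-3.56), mpeg1.1 (-0.74) and irf8 (-1.39) were higher in reference RNA 2, while c1qa and c1qb, given with complement, were called the other way, and those calls were lost with total counts. The neutrophil lysozyme lyz was at water level in both RNAs, at 27 to 50 counts against 471 to 886 in the pools. Of the leukocyte genes higher in reference RNA 1, hmox1a is also on the xenobiotic list.

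Of 13 endothelium genes, 6 were called higher in reference RNA 2 and 3 higher in reference RNA 1, beside 41.1% and 37% of all probes tested. All 6 were scaling-independent and 0 of the 3 were. Among the 6 was pecam1 (-1.10), and among the 3 was cdh5 (1.42), which turned to -0.76 with total counts. In the interferon list 9 of 15 were called higher in reference RNA 1 and 1 higher in reference RNA 2, with 4 scaling-independent. Over all probes tested these shares were 37% and 41.1%. The ubiquitin-like isg15 had 596 to 804 counts in reference RNA 1, 85 to 141 in reference RNA 2 and 39 to 106 in the pools (4.48 ± 0.10).

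The thyroid hormone deiodinases were called higher in reference RNA 1. dio1, which activates and clears the hormone, had 10127 to 13861 counts in reference RNA 1 and 771 to 1100 in reference RNA 2 (5.66 ± 0.06). dio2, which activates it, had 1740, 1895, 1666 and 1630 counts in reference RNA 1 and 1466, 1737, 1045 and 1127 in reference RNA 2, against 2 to 11 in the pools. Its log2 difference was 2.41 ± 0.07, and 0.22 with total counts, and the 4 water libraries had 35, 27, 186 and 18. The pituitary list as a whole had 4 genes called in each direction of 12 tested, beside 37% of all probes called higher in reference RNA 1 and 41.1% in reference RNA 2. Its hormone genes lhb, cga and fshb did not pass. The hormone precursor pomca, at 60 to 91 counts in reference RNA 2 and 9 to 15 in reference RNA 1, was called higher in reference RNA 2 (-0.74 ± 0.29, adjusted p = 0.0202). That call was lost without replicate 1 or 3 of reference RNA 1 and without replicate 4 of reference RNA 2 (adjusted p = 0.0603, 0.0521 and 0.0518).

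Genes of general cell function were mixed. Of 20 genes of oxidative phosphorylation and the citrate cycle, 11 were called higher in reference RNA 1 and 7 higher in reference RNA 2, with a median of 0.31. Over all probes tested these shares were 37% and 41.1%. Only the 7, in the direction that total counts favour, were scaling-independent. The largest was ndufa4, of the terminal oxidase, with 1329 to 1596 counts in reference RNA 2 and 12 to 36 in reference RNA 1, at water level (-3.83 ± 0.14). Of 29 heat shock and unfolded protein genes, 11 were called higher in reference RNA 1 and 9 higher in reference RNA 2. Of the 11, 1 was scaling-independent, and of the 9, 8 were. Within the cytosolic HSP90 pair the inducible hsp90aa1.2 differed by -4.26 (7176 to 10168 against 94 to 136 counts) and the constitutive hsp90ab1 by 1.73, which turned to -0.45 with total counts. hsp90b1 of the endoplasmic reticulum (2.97) was higher in reference RNA 1 under all 3 scalings.

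Of 14 clock genes, 7 were called higher in reference RNA 2 and 3 higher in reference RNA 1, beside 41.1% and 37% of all probes tested. All 7 were scaling-independent, as nearly all calls in this direction were, and 0 of the 3 were. The repressors per2 (-1.44) and cry1a (-1.11) and the kinase csnk1e (-4.09) were among the 7, and nr1d1 was at water level in both RNAs, at 252 to 573 counts against 3938 to 9334 in the pools. Of 56 cell cycle genes tested, reference RNA 1 lay below all 6 pools for 45 with TMM, against 31.3% of all probes, and for 54 with total counts, against 65.5%. Reference RNA 2 lay below them for 47 with TMM, against 32.9%, and for 36 with total counts, against 20.3%. Between the RNAs, 16 were called higher in reference RNA 2, 10 higher in reference RNA 1 and 30 did not pass. Of the 16, 13 were scaling-independent, and of the 10, 1 was. The proliferation marker mki67 was among the 30, at 49 to 78 and 168 to 218 counts (log2 difference 0.27, adjusted p = 0.115).

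Many markers of retina and some of muscle, cartilage and skin, though not of every embryo tissue, stood at the level of water in both RNAs. The troponin tnnt3b had 4418, 5221, 3685 and 4501 counts in reference RNA 1, 4368, 4563, 3592 and 4030 in reference RNA 2, and 4974, 4730, 4095 and 4037 in water. The pools had 90365 to 130331. TMM scaling nevertheless gave tnnt3b a log2 difference of 2.12 ± 0.06 (adjusted p = 9.80e-27), which was -0.07 with total counts, so that this call is one of equal counts in unequal libraries. The red cone opsin opn1lw1 had 329 to 451, 343 to 471 and 355 to 451 counts in the 2 RNAs and water, against 8194 to 16146 in the pools. All 6 opsins tested were at water level in both RNAs.

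The same held for the cartilage collagen col2a1a (137 to 257 counts in the 8 reference libraries, 156 to 288 in water, 2987 to 7807 in the pools) and for the skin keratin cyt1l (1442 to 2138, 1535 to 2055 and 31707 or more). Not all keratins were at water level: of 6 tested, 3 were in reference RNA 1 and 3 in reference RNA 2. In reference RNA 2 krt5 had 4048, 4003, 3635 and 3573 counts, over a water range of 1879 to 2365. It stayed under the 2 times that defines water level and under the pools at 36615 or more. Reference RNA 1 and reference RNA 2 were at water level for 13 and 10 of 16 tested retina genes and for 8 and 6 of 12 muscle genes. These numbers were 15 and 5 of 21 cartilage, bone and notochord genes and 13 and 6 of 21 fibroblast genes. They were 5 and 3 of 12 epidermis genes, 1 and 0 of 7 smooth muscle genes, 2 and 0 of 5 kidney genes and 4 and 0 of 13 endothelium genes. The bone and skin collagen col1a1a was over water in reference RNA 2, at 89 to 183 counts against 33 to 47, and cdh5 in both RNAs, at 13 to 55 against 1 to 2. In the retina list neurod1 and gnb1a, which neurons outside the eye also express, were the 2 genes called higher in reference RNA 2. Over all 332 probes with a mean of 1000 counts or more in the pools, reference RNA 1 was at water level for 91, reference RNA 2 for 47 and both for 38, while the pools themselves were for 1.

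Adult beta globin, hbba1, was present in both reference RNAs and not in the pools. It had 1155, 1460, 1058 and 1199 counts in reference RNA 1 and 3399, 3443, 2530 and 2678 in reference RNA 2, against 0 to 9 in the pools and 48, 34, 191 and 31 in water. Between the RNAs TMM scaling called it higher in reference RNA 1 (0.71 ± 0.06) and total counts higher in reference RNA 2 (-1.48), so no direction is drawn. Zebrafish adult globin genes lie in near-identical copies, and whether they share this probe was not tested. The embryonic alpha globin hbae3 was at water level in both.

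**Figure D4:**
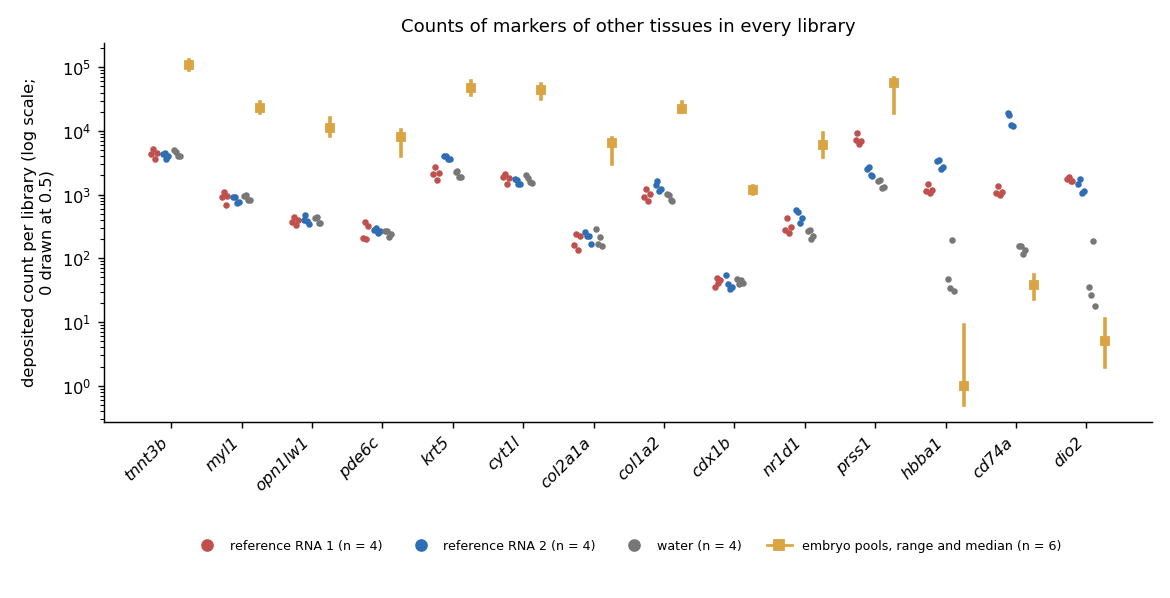
Deposited counts (log y axis, 0 drawn at 0.5) of 14 genes of other tissues, with 1 point per library for the 2 reference RNAs and water and the range and median of the 6 embryo pools. From tnnt3b to nr1d1 the reference RNAs lie beside water or, as krt5 in reference RNA 2, slightly above it, and the pools lie far above, and for hbba1, cd74a and dio2 the order is the opposite, with the pools lowest.

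Repeats of an RNA were far closer to each other than the 2 RNAs were. Over the 1932 probes used for distances, 4.14 to 6.94% were more than 2-fold apart between 2 libraries of reference RNA 1 and 0.776 to 1.4% between 2 of reference RNA 2. Across the RNAs it was a median of 59.8% and at most 60.8%, and between 2 separate embryo pools a median of 5.69% and at least 2.07%. The TMM factors, which scale the effective depth, were 0.449 to 0.487 in reference RNA 1 and 2.1 to 2.16 in reference RNA 2, and their part in the larger share within reference RNA 1 was not tested. Among probes at 50 CPM or more the median coefficient of variation was 9.25% in reference RNA 1 and 6.52% in reference RNA 2. Against the pools, 53 to 57.2% of probes were more than 2-fold apart for reference RNA 1 and 54.6 to 57.9% for reference RNA 2. No 2 repeats agreed within sampling noise, since the chi-square per degree of freedom reached at least 2.97 in each pair of repeats.

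**Figure D5:**
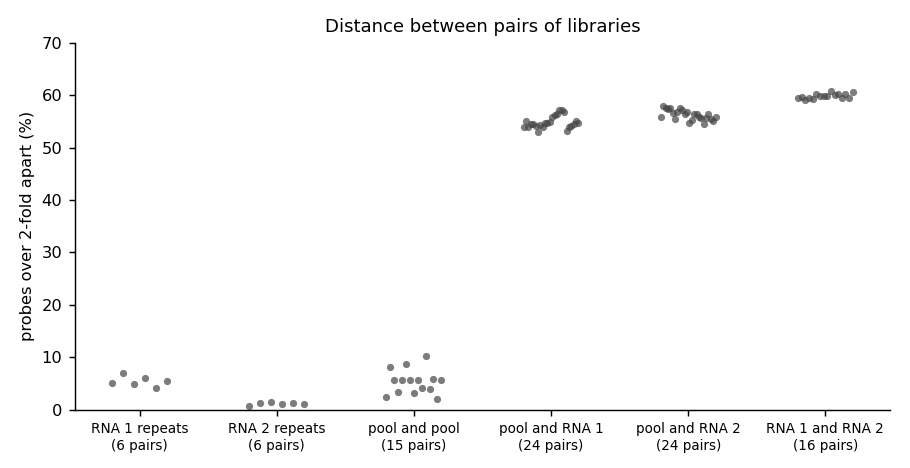
Share of probes more than 2-fold apart (y axis, %) for every pair of libraries, grouped by kind of pair, after TMM scaling. Pairs of repeats lie at 6.94% or less, pairs of embryo pools at a median of 5.69%, and pairs across the RNAs at a median of 59.8%.

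The plates moved few probes. The plate term was called for 33 of the 2504 probes (1.32%), 25 of them higher on plate 2, and 4 of them by 2-fold or more. The count fell to 17 without replicate 1 or without replicate 4 of reference RNA 2, and to 21 without its replicate 3. The fatty acid binding protein fabp11a had 29 and 56 counts in the reference RNA 1 libraries of plate 1 and 140 and 161 in those of plate 2, and 74 and 64 against 268 and 201 in reference RNA 2, a log2 difference of 2.09 ± 0.16 between plates (adjusted p = 2.23e-11). The others past 2-fold were csnk1a1, atp6v0b and copz1. The difference between the RNAs itself differed between plates for 1 probe (0.0399%), that of rpl13a, and for 189 probes at an unadjusted p under 0.05. On plate 1 rpl13a was 2.22 higher in reference RNA 1 and on plate 2 it was 2.82 higher, with the same direction on both plates. Such calls numbered 0 without replicate 3 of reference RNA 1, 12 without its replicate 4, 6 without its replicate 1, and 2 without replicate 1 or replicate 4 of reference RNA 2.

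For 38 genes with 2 or more tested probes the probes could be set against each other. All probes were called for 20 genes, in the same direction for 19 of them and in opposite directions for mpc2. Among genes with only some probes called, shank3a had called probes in both directions (-1.41, -1.35 and 0.57), and cyp2aa11 had 1 probe called at -1.70 while the probe used here was not called. The median range of log2 differences within a gene was 0.42 and the largest 3.02.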

How the data were processed

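The deposited table holds raw counts per probe and library, per the labels from a TempO-Seq S1500+ panel sequenced on a NextSeq instrument, with whole numbers of unequal totals and no sign of scaling by the authors. Per the submitters' processing notes the tools were fastp 0.23.2, STAR 2.7.10b and R 4.4.1, without their roles. Genome build and counting step: not given in the sources used here. No coordinates or sequences are given. Only 18 columns of the table were read into results, and the other 210 were not used. Of 3183 probes, 3122 carry a symbol found in the name tables used here. Where a gene has several probes, the probe with the highest mean count stands for it, and cross-reaction of a probe with paralogs was not examined.

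The 8 reference libraries were fitted in R 4.3.3 with edgeR 4.0.16 (filterByExpr, TMM, glmQLFit and glmQLFTest) on plate and RNA, two-sided, with Benjamini-Hochberg adjustment over the 2504 probes tested and a threshold of 0.05. Log2 differences are reference RNA 1 minus reference RNA 2, with SE from the fit. The 6 embryo pools and 4 water libraries stayed out of the fit. Their counts are given as deposited, and positions above or below the pools use TMM over all 14 RNA libraries or total counts. The step was tested on simulated data with 200 changed probes, far fewer than the 1955 called here. The simulation therefore does not test the scaling of RNAs as unlike as these 2.

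The libraries were taken by title, and the gene lists and families were chosen, with earlier results of these data known. Genes were named by a rule: among called genes without overlap and averaging at least 50 counts in the higher RNA, the 15 largest differences in each direction, 3 members per list by smallest p, and all defining markers measured. Other genes, and the families taken by symbol, were named after their values were seen. PCR reads carry no molecular identifiers, and p-values measure only the spread between technical repeats of 1 RNA each. Alternatives were other scalings, filters, the test of DESeq2 1.42.0, other covariates, single plates and each library left out.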

Additional observations from a re-analysis of the deposited data

Results flagged for a closer look

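Of 96 groups of 4 libraries checked for a library far from the other 3, 3 held one, and chance gives about 1 in 20 groups. Reference RNA 1 replicate 2 had 26142 CPM of tdo2a, against 23430 to 23520 in the other 3. Reference RNA 2 replicate 2 had 27.5 CPM of sox10, against 19.8 to 20.9, and reference RNA 2 replicate 1 had 6.01 CPM of cyp19a1b, against 11.4 to 11.9.

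The difference between the RNAs in rpl13a was 0.56 ± 0.10 larger on plate 2 than on plate 1 on the log2 scale (edgeR's quasi-likelihood test of the interaction, Benjamini-Hochberg adjusted p = 0.0083, 2 libraries of each RNA per plate).

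The libraries labelled water held signal: the lowest of the 4 had 165618 counts, and 2476 to 2550 probes were above 0 in each.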

How the results depend on the processing

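The 1955 calls became 1778 to 2312 under the other scalings, filters, tests, covariates and single plates except where only probes over 10 times water (1530 of 1939 tested), a test against a 1.5-fold change (1546) or counts with water subtracted (1760) were used. Total counts gave 308 probes higher in reference RNA 1 and 2004 higher in reference RNA 2. With total counts 52 probes differed between plates and 3 had a difference that depended on plate, and without the low-count filter 53 and 7. With the replicate block in place of plate 1921 probes were called, 909 higher in reference RNA 1 and 1012 higher in reference RNA 2, and the deviations of same-numbered libraries correlated by 0.0017 to 0.082, with no library closest to its own number, so the numbers were not treated as pairs.

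Leaving out each library in turn gave 1905 to 1964 calls, 1426 to 1466 of 2-fold or more, 902 to 944 higher in reference RNA 1, 991 to 1020 higher in reference RNA 2, 17 to 31 plate calls and 0 to 12 calls dependent on plate. Of 110 named genes, 107 kept their side of the threshold without any 1 library, and the 3 others were col1a1a, dazl and pomca. Under every setting in which they were tested, 78 kept direction and side. A gene that a filter removed was not scored in that setting. With only probes over 10 times water, 79 named genes kept their side, 2 lost it and the rest were not tested. With only probes over 2 times water in either RNA, 95 kept it, 0 lost it and the rest were not tested.

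Total counts reversed 26 named genes, with log2 differences of -0.21 for opn1lw1, -0.20 for pde6c, -0.10 for mylka, -0.23 for myl9b, -0.37 for col2a1a, -1.03 for cav1, -0.60 for col1a2, -0.41 for col1a1b, -1.19 for ccnd1, -1.04 for atp5f1c, -0.45 for hsp90ab1, -0.73 for nr1d1, -0.051 for psmb9a, -0.51 for rsad2, -0.26 for opn1lw2, -0.070 for tnnt3b, -0.67 for alpi.2, -0.091 for cdx1b, -0.99 for krt5, -0.68 for matn1, -1.74 for col1a1a, -0.76 for cdh5, -1.07 for alas2, -1.48 for hbba1, -1.44 for mpx and -0.24 for lyz. With water subtracted, krt5 (-1.29, adjusted p = 0.224) and col1a1a (-1.50, adjusted p = 0.114) were reversed and did not pass; that alternative was chosen after seeing the data. The cause was not tested beyond the shift of -2.17 that total counts make by construction. Counts of a few per library and a background of 165618 counts or more in water limit what can be said of low genes.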
